A study of Mus musculus with 2 samples.

Results

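The Wnt pathway was examined in the aorta-gonads-mesonephros (AGM) region of the mouse embryo through 48 genes, which encode ligands, receptors, secreted inhibitors, R-spondins and their receptors, the destruction complex with beta-catenin, TCF and LEF factors, and feedback genes. The 48 were picked by name out of 31053 genes in the files. Their unique molecular identifier (UMI) counts were read in every barcode with 2000 or more UMIs and under 10% mitochondrial UMIs. The study profiled cells of dissociated E11 AGMs by droplet 3′ single-cell RNA-seq and asked what PDGFRB does in the perivascular niche where blood stem cells arise. There was 1 library of PDGFRB +/+ (WT) and 1 of PDGFRB -/- (KO) embryos, both on a C57BL/6J background and untreated. The KO lacks the receptor in every cell of the embryo, not in the mesenchyme alone. With 1 library per genotype there is no replicate, so no test between genotypes was made. All intervals are exact 95% intervals that cover counting error only, not the variation between embryos. Those of summed UMIs do not cover the spread between barcodes either.

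Wnt ligands are secreted, lipid-modified glycoproteins that bind Frizzled receptors together with the coreceptors LRP5 and LRP6. In the canonical branch this stops the destruction complex of Axin, APC and GSK3 from marking beta-catenin for degradation, and beta-catenin then acts with TCF and LEF factors on target genes. ROR and RYK receptors serve other branches. R-spondins, through LGR receptors, keep Frizzled receptors at the surface by restraining ligases such as ZNRF3, while DKK, SFRP and WIF proteins block coreceptors or ligands outside the cell. Canonical Wnt activity is known to be needed for a time as hematopoietic stem cells form in the AGM.

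The filters kept 8253 WT and 8165 KO barcodes, with medians of 13321 and 12391 UMIs, and 20 barcode sequences occurred in both libraries. Pdgfrb, the targeted gene, stood at 43.1 CPM (42.1 to 44.2) in WT against 7.09 CPM (6.66 to 7.55) in KO, where CPM is the summed UMIs of a gene scaled to 1000000 UMIs for a group of barcodes. In KO 801 barcodes still carried a Pdgfrb UMI. Xist was at 793 CPM in WT against 0.415 CPM in KO, and Y-linked genes together at 0.0266 and 163 CPM, so genotype and the sex of the embryos cannot be told apart. Barcodes were placed in classes by how many marker genes they held, and 13 classes with at least 50 barcodes in each library were compared. A class is called the highest for a gene by CPM alone and among these 13, so a smaller gate may stand higher. For Fzd7, Lrp5, Lgr4, Tcf7l1 and Tcf7l2, among others, the intervals of the highest and the next class overlapped in both libraries. In each class with markers of its own at least 3 of them were highest in that class, in both libraries. The class gated on Prrx1, Prrx2, Alx1, Alx4 and Twist2 (Prrx/Twist2 mesenchyme) had only 1 of its markers among its 10 leading genes in WT and 2 in KO, and is called by its gate. Free RNA was estimated at 1.56% of UMIs in WT and 2.95% in KO.

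As a set, and under the filters above, the members differed between the libraries about as often as other genes. Other settings moved the counts of members, and there no share of all genes stands beside them. In all barcodes 2 of 48 were lower in KO by 1.5-fold or more, Wnt2 and Sfrp5, beside 5.06% of all genes with at least 100 summed UMIs. Higher by as much were 3 of 48, Fzd8, Wif1 and Lgr5, beside 5.75% of all genes. Both counts are near the background. On the log2 scale (KO over WT) the members had a median of 0.02 and all genes one of 0.06. Of the members 21 were below 0 and 27 above, beside 39.3% of all genes below 0. In mesenchymal barcodes, which were 64.8% of WT and 70.3% of KO barcodes, 3 of 46 members were lower (4.62% of all genes), namely Wnt2, Wnt9a and Tcf7l2, and 2 were higher (4.46%), namely Fzd8 and Lgr5. A Wnt list that the study chose on these same samples, and which is thus no independent evidence of a direction, holds 21 of the members. The study reported these genes as significantly lower in KO, by a rank test over single cells of its perivascular niche cluster. That measure and those cells differ from the ones here. Of these members 1 was lower and 0 were higher past 1.5-fold in all barcodes, with a median log2 ratio of 0.01. In mesenchymal barcodes 2 were lower, Wnt2 and Tcf7l2, and 0 higher, with a median of -0.02.

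**Figure D1:**
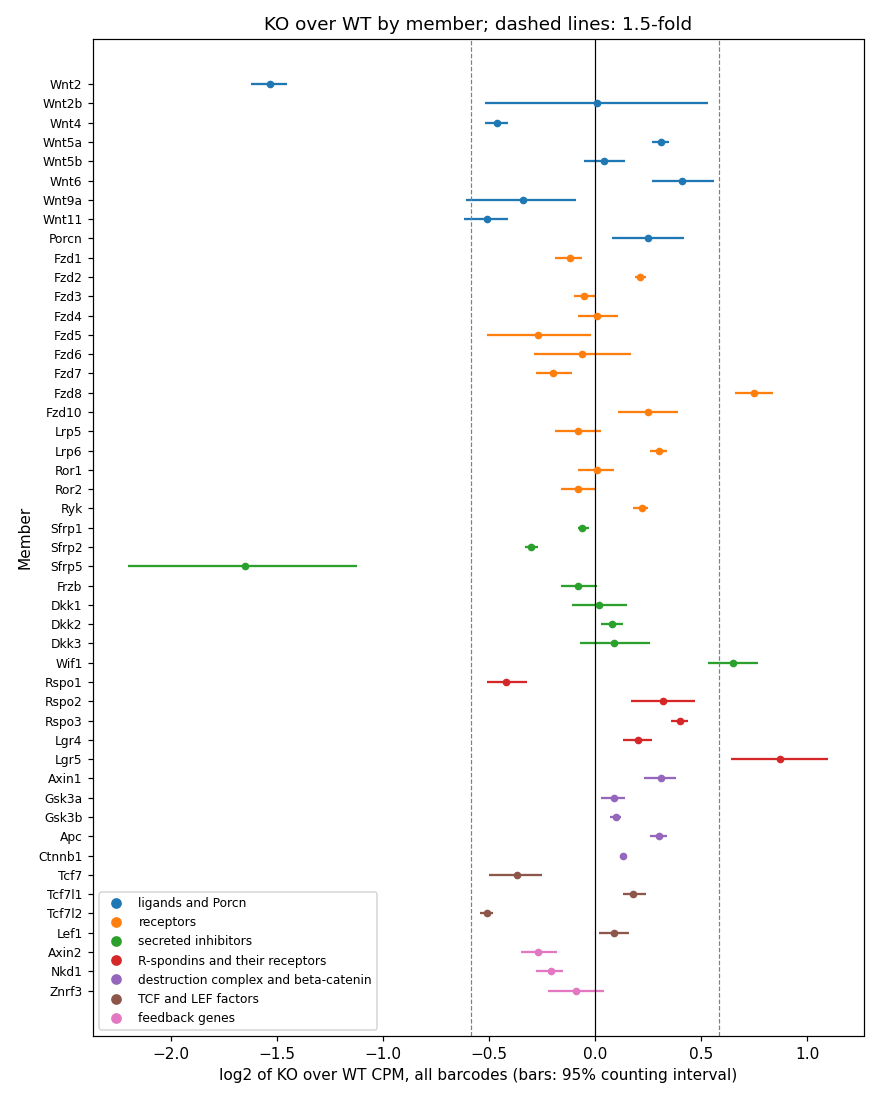
Log2 ratio of KO over WT CPM in all barcodes (x axis) for each of the 48 members (y axis), coloured by role, with 95% counting intervals and dashed lines at 1.5-fold. Wnt2 (-1.53) and Sfrp5 (-1.65) lie left of the dashed lines, and Fzd8 (0.75), Wif1 (0.65) and Lgr5 (0.87) right of them.

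Wnt2, a ligand that signals mainly through beta-catenin and is known from the lung and placenta, differed between the libraries more than any member but the sparse Sfrp5. Its gene lies on GRCm38 chromosome 6, from 17988940 to 18030585, on the minus strand. Over all barcodes Wnt2 was at 32.1 CPM (31.2 to 33.0) in WT against 11.1 CPM (10.5 to 11.6) in KO, 2.90-fold lower in KO. The difference was unequal among classes. In smooth muscle-like barcodes Wnt2 was at 73.1 CPM (67.8 to 78.7) in WT against 11.6 CPM (9.37 to 14.2) in KO, or -2.66 (-2.98 to -2.35) on the log2 scale. Acta2, Actg2, Tagln, Cnn1 and Myh11 were among the leading genes of this class in both libraries. Actc1, Ankrd1 and Acta1 were so in WT alone, and Eln, Fbln5 and Rgs5 in KO alone. The gate may thus not have held the same mix of cells in both. In Prrx/Twist2 mesenchyme Wnt2 was at 58.5 and 13.4 CPM (-2.13). Mesenchyme that passed no narrower gate, or several of them equally well (other mesenchyme), had 58.1 and 15.9 CPM (-1.87). Sclerotome-like barcodes had low levels in both libraries, 6.38 and 2.35 CPM.

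The mesenchyme gated on Tcf21, Foxf1, Foxf2 and Isl1 (Tcf21/Foxf mesenchyme) had instead 34.2 CPM (31.3 to 37.4) of Wnt2 in WT and 37.3 CPM (34.1 to 40.7) in KO. Its log2 ratio, 0.12 (-0.06 to 0.31), had an interval that did not overlap those of the smooth muscle-like, Prrx/Twist2 and other mesenchyme classes. Coelomic and gonadal ridge-like barcodes had 27.6 and 20.8 CPM, and nephrogenic mesenchyme 10.6 and 11.7 CPM, with log2 intervals that reached 0 in both. The highest of the 13 classes was thus smooth muscle in WT and Tcf21/Foxf mesenchyme in KO. Erythroid-like barcodes, which should lack the gene, had 4.47 and 4.90 CPM, and the KO value came from 1.37% of 219 barcodes. Barcodes with at most 100 UMIs, whose content is mostly free RNA, had 20.5 and 9.33 CPM, so free RNA held less Wnt2 in KO as well.

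Shares of barcodes gave the same picture. With every barcode thinned to 2000 UMIs, a Wnt2 UMI was found in 11.5% (8.57 to 15) of WT and 1.38% (0.377 to 3.49) of KO smooth muscle-like barcodes, and in 6.11% (4.33 to 8.32) and 6.07% (4.19 to 8.46) of Tcf21/Foxf mesenchyme. The share was 0.405% in WT and 0.457% in KO erythroid-like barcodes. Without thinning it was 26.7% and 8.97% in smooth muscle-like, 21.8% and 17.6% in Tcf21/Foxf and 2.84% and 1.37% in erythroid-like barcodes.

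A split chosen after the Wnt2 values were seen used Pitx1, which encodes a homeodomain factor of the hindlimb field. Pitx1 itself was lower in KO mesenchyme, 35.7 CPM (34.5 to 36.9) against 81.8 CPM (80.0 to 83.6). In smooth muscle-like barcodes its KO level was 15.1 CPM against 73.3 CPM. The split thus rests on a gene that differed between the libraries. Mesenchymal barcodes with a Pitx1 UMI were 1492 of 5345 in WT (27.9%) and 704 of 5736 in KO (12.3%). They held 3941 of the 4425 mesenchymal Wnt2 UMIs in WT and 915 of 1401 in KO. Wnt2 was at 116 CPM (113 to 120) in them in WT and 53.7 CPM (50.3 to 57.3) in KO, but at 7.52 CPM (6.87 to 8.22) and 5.84 CPM (5.33 to 6.38) in mesenchymal barcodes without Pitx1. Both the share of such barcodes and the Wnt2 level in them were therefore lower in the KO library. The log2 ratio was -1.12 (-1.22 to -1.01) in mesenchymal barcodes with Pitx1 and -0.36 (-0.55 to -0.18) in those without. As barcodes with Pitx1 held most Wnt2 UMIs, those without were not far above the erythroid-like level in either library. Little difference could show there, so the split does not tell why Wnt2 differed. Mesenchyme was also split by other genes. Without an Actg2 UMI the log2 ratio was -1.52 (-1.63 to -1.42). Barcodes lacking Hoxd13 held 43.7 (WT) and 9.96 CPM (KO), and those lacking Hoxa13 32.4 and 7.53 CPM. For Hoxc10 these levels were 33.7 and 13.1 CPM, and for Hoxc6 47.5 and 21.6 CPM. With a Barx1, Tlx1 or Nkx2-5 UMI the log2 ratio was -0.72 (-1.11 to -0.35), on 560 WT and 85 KO barcodes. The gate on Barx1, Tlx1, Nkx2-5 and Nkx2-3 (gastro-splenic mesenchyme) held 109 WT (1.32%) and 6 KO (0.0735%) barcodes. It is part of mesenchyme but not among the 13 classes. Barx1 was also among the leading genes of Tcf21/Foxf mesenchyme in WT alone, and Nkx2-3 in KO alone. The mesenchyme of the 2 libraries was thus not matched in make-up.

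By class, Prrx/Twist2 barcodes with Pitx1 were 39.3% in WT and 21.3% in KO, with Wnt2 at 121 CPM (115 to 127) and 27.8 CPM (23.8 to 32.2). Smooth muscle-like barcodes with Pitx1 were 125 of 409 and 21 of 290, with Wnt2 at 198 CPM (183 to 214) and 115 CPM (91.2 to 144). In Tcf21/Foxf mesenchyme, barcodes with Pitx1 were 39.3% and 28.7%, and there Wnt2 was higher in KO, at 90.6 CPM (82.3 to 99.5) against 62.5 CPM (56.6 to 68.8). Without barcodes that held Pitx1, the log2 ratio of Wnt2 over all barcodes was -0.18, and 0 members with at least 100 summed UMIs were lower past 1.5-fold. Sfrp5, at -0.98 there, was under that number of UMIs and so was not counted. In mesenchyme, Hoxd13, a gene of the posterior end of the body axis, was at 31.1 CPM in WT against 23.4 CPM in KO. Hoxa13 was at 19.0 and 17.1 CPM, Hoxc10 at 63.6 and 77.1 CPM and Hoxc6 at 83.0 and 103 CPM. Smooth muscle-like barcodes held less Hoxd13 (6.33 and 2.68 CPM), Hoxa13 (13.2 and 5.48 CPM) and Hoxc10 (70.3 and 37.7 CPM) in KO. Hoxc6 went the other way there, with 68.8 and 86.9 CPM. Prrx/Twist2 mesenchyme had 38.7 and 33.2 CPM of Hoxd13, 18.8 and 18.9 CPM of Hoxa13 and 84.0 and 84.8 CPM of Hoxc10. Its Hoxc6 levels were 81.8 and 96.3 CPM. Whether the 2 dissections held the same stretch of the body was not tested.

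**Figure D2:**
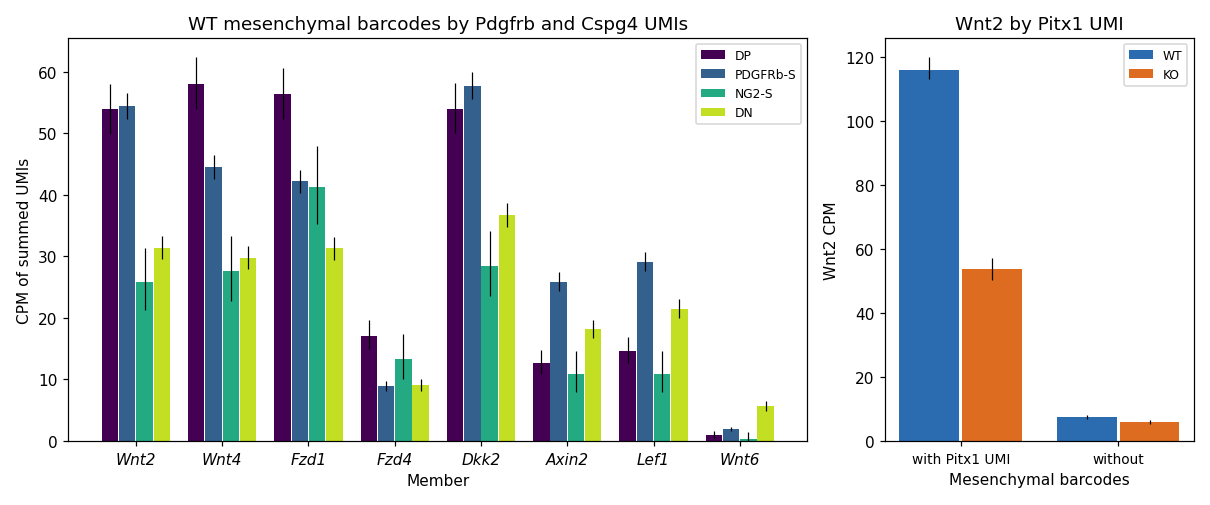
Left, CPM (y axis) of 8 members in WT mesenchymal barcodes split by UMIs of Pdgfrb and Cspg4 (DP both, PDGFRb-S Pdgfrb alone, NG2-S Cspg4 alone, DN neither). Right, Wnt2 CPM in mesenchymal barcodes with and without a Pitx1 UMI in WT and KO, at 116 and 53.7 CPM with one and 7.52 and 5.84 CPM without. Error bars are 95% counting intervals.

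Among the other ligands, Wnt4, which kidney and ovary formation require, was at 40.1 CPM (39.1 to 41.1) in WT against 29.1 CPM (28.2 to 30.0) in KO. In coelomic and gonadal ridge-like barcodes it was at 120 CPM (111 to 129) and 48.5 CPM (41.3 to 56.6), or -1.31 (-1.56 to -1.06) on the log2 scale, and in nephrogenic mesenchyme at 63.3 and 31.8 CPM. In smooth muscle-like barcodes it was at 73.0 CPM (67.7 to 78.6) and 68.0 CPM (62.5 to 73.9), and the intervals overlapped. A small gate on Epcam, Cdh1, Pax2, Pax8, Cldn6, Cldn7 and Krt18 went the other way, with 171 CPM (153 to 190) in 39 WT barcodes and 351 CPM (325 to 378) in 51 KO barcodes. That gate was led by Dppa5a, a gene of pluripotent and germ cells, in WT. In KO it was led by Kctd14 and Krt14, with Dppa5a next. The leading genes thus differed in part between the libraries, with Epcam and Calb1 among them in both. Wnt6 was at 40.4 and 117 CPM in this gate, and at 14.1 and 7.23 CPM in the coelomic class.

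Wnt5a, the main ligand of ROR receptors, was at 53.9 CPM (52.7 to 55.1) in WT against 66.9 CPM (65.6 to 68.3) in KO. Tcf21/Foxf mesenchyme held 112 and 109 CPM, and Prrx/Twist2 mesenchyme 77.1 and 111 CPM, so that these classes were level with each other in KO but not in WT. Smooth muscle-like barcodes had more in KO, 65.2 CPM (59.8 to 71.0) against 40.4 CPM (36.5 to 44.6), and endothelial-like barcodes less, 9.29 CPM (6.67 to 12.6) against 18.0 CPM (13.7 to 23.2). Wnt5b was highest in the coelomic class in both libraries, at 24.4 and 23.2 CPM. Wnt9a was 1.54-fold lower in KO mesenchyme, 1.27 CPM (1.06 to 1.51) against 1.96 CPM (1.69 to 2.25). Without barcodes that held Pitx1 its log2 ratio in mesenchyme was -0.075, which is within 1.5-fold. The coelomic and gonadal ridge-like class was the highest of 13 in WT for 5 of the 8 ligands, Wnt2b, Wnt4, Wnt5b, Wnt6 and Wnt9a. In KO it was the highest for Wnt2b, Wnt5b and Wnt9a, while Wnt4 was highest in smooth muscle-like and Wnt6 in Schwann precursor-like barcodes. For Wnt2b, Wnt5b and Wnt6 the KO intervals of the highest and the next class overlapped, so their order there is not settled. The share of all genes that are highest in the coelomic class was not counted. The small gate on Epcam and others, which held more Wnt4 and Wnt6 in both libraries, is not among the 13.

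Of the Frizzled genes, all but Fzd2 and Fzd10 had the same highest class in both libraries. Fzd4, the Norrin and Wnt receptor of vascular endothelium, was highest in endothelial-like barcodes, at 68.8 CPM (60.2 to 78.4) in WT against 75.0 CPM (67.2 to 83.6) in KO. The coelomic class followed at 46.7 and 39.8 CPM, and the median of the 13 classes was 9.99 and 9.60 CPM. With barcodes thinned to 2000 UMIs, 12.4% (6.33 to 21) of WT and 18.2% (10.8 to 27.8) of KO endothelial-like barcodes had a Fzd4 UMI, against 0.676% and 0.457% of erythroid-like ones. Unthinned, the endothelial-like shares were 69.7% and 77.3% and the erythroid-like ones 1.49% and 2.28%.

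Fzd5 was highest in sympathoblast- and neuron-like barcodes, at 20.2 CPM (15.1 to 26.4) and 27.9 CPM (20.8 to 36.7). Fzd3, known for axon guidance, was highest in Schwann precursor-like barcodes at 98.4 and 78.9 CPM and next in sympathoblast-like ones at 68.5 and 71.6 CPM, which overlapped in KO. Fzd1 was highest in smooth muscle-like barcodes, at 68.9 and 57.3 CPM, and Fzd7 in Tcf21/Foxf mesenchyme, at 30.6 and 27.0 CPM. Fzd2 was high in all mesenchyme, up to 186 CPM in WT Prrx/Twist2 mesenchyme and 202 CPM in KO sclerotome-like barcodes, and lowest in endothelial-like barcodes, at 18.0 and 21.8 CPM.

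Fzd8 was the 1 receptor of 14 past 1.5-fold, at 11.9 CPM (11.3 to 12.4) in WT against 19.9 CPM (19.2 to 20.7) in KO, 1.68-fold higher in KO. Sclerotome-like barcodes were its highest class in both, at 33.3 and 39.8 CPM, and they were 13.8% of WT and 22.8% of KO barcodes. Within that class the log2 ratio was 0.26 (0.11 to 0.41), against 0.75 (0.66 to 0.84) over all barcodes. In Prrx/Twist2 mesenchyme Fzd8 was at 9.55 CPM (8.50 to 10.7) and 15.3 CPM (13.8 to 16.8), and 11 of 13 classes were higher in KO. With the KO classes weighted to their WT shares the log2 ratio was 0.47, which is under 1.5-fold.

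The coreceptor Lrp6 was at 67.0 CPM (65.7 to 68.4) in WT against 82.5 CPM (81.0 to 84.0) in KO, and in endothelial-like barcodes at 51.8 CPM (44.3 to 60.2) and 55.1 CPM (48.4 to 62.5), where the intervals overlapped. Lrp5 was highest in endothelial-like barcodes, at 20.7 and 15.6 CPM. Ror1 was highest in smooth muscle-like barcodes, at 31.7 and 36.6 CPM. Ror2 was more even, at 16.8 and 15.9 CPM over all barcodes and at most 24.5 CPM in a WT class and 23.9 CPM in a KO class. Ryk, a Wnt receptor with an inactive kinase domain, was at 86.3 CPM (84.9 to 87.8) and 100 CPM (98.6 to 102).

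**Figure D3:**
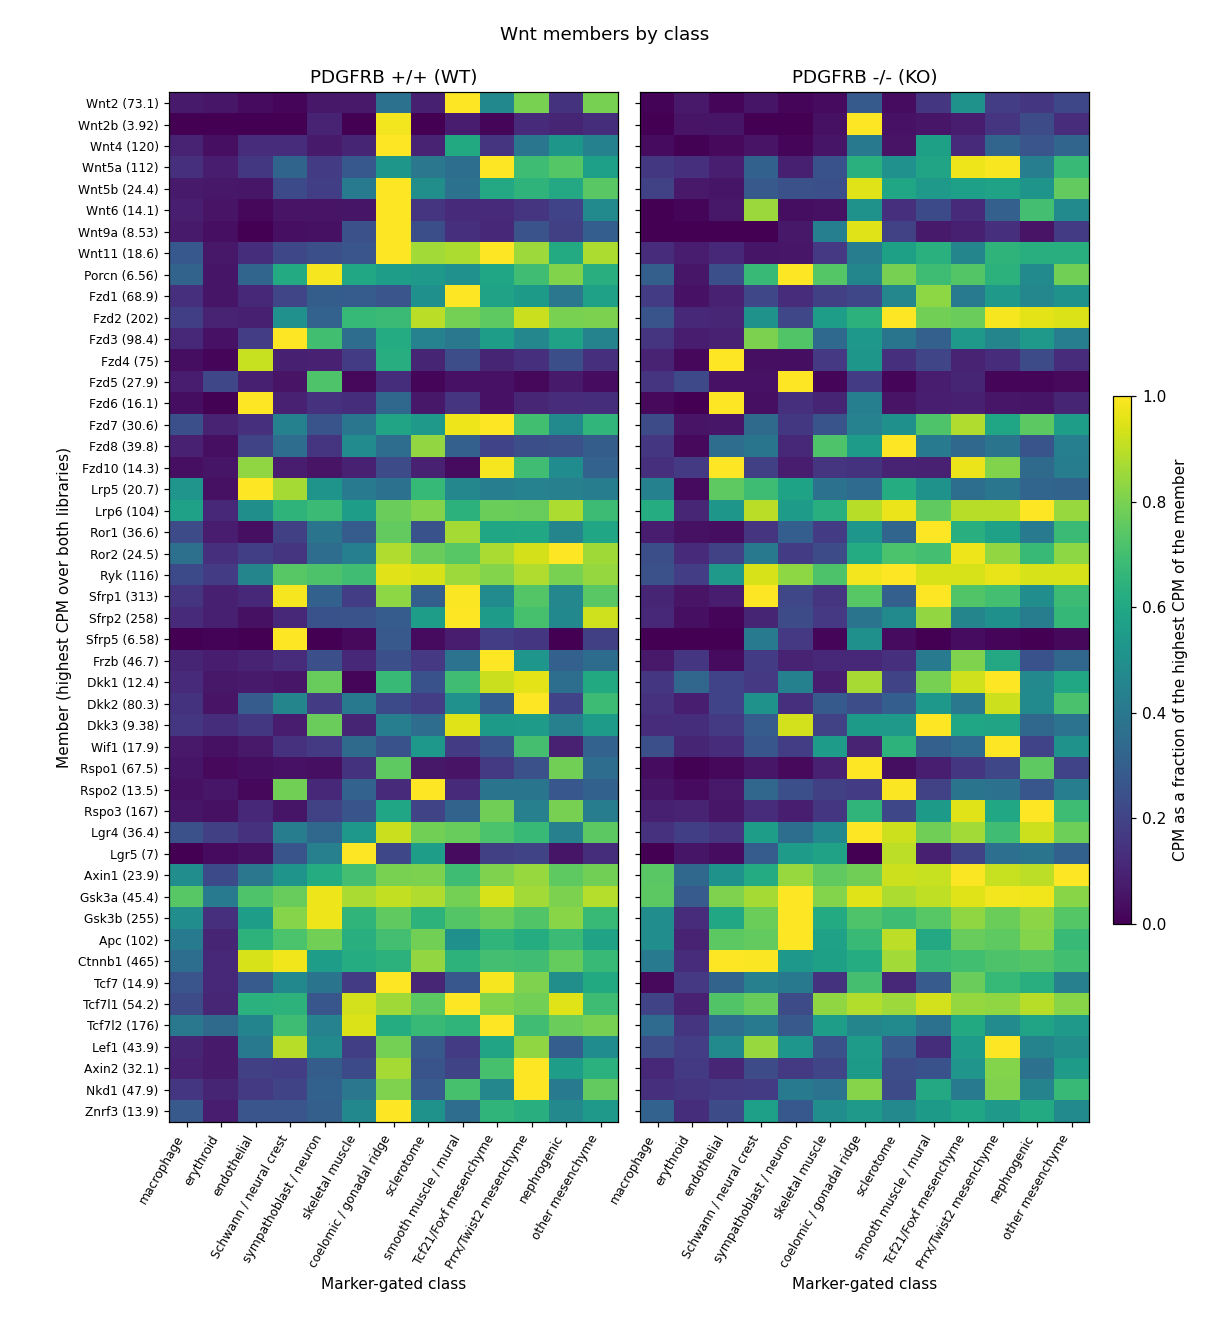
Heat map of the 48 members (rows) in the 13 marker-gated classes (columns) in WT and KO. Colour is CPM as a fraction of the highest CPM of that member over both libraries, which stands beside its name. Of the 48 members 29 had the same highest class in both libraries (15 after thinning to 2000 UMIs). Among the 29 were Fzd4 and Fzd6 (endothelial) and Fzd8 (sclerotome). For others of them, such as Lrp5 and Tcf7l1, the intervals of the highest and the next class overlapped. The share over all genes was not counted.

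Of the secreted inhibitors, Sfrp1, a Frizzled-like decoy, was highest in smooth muscle-like (311 and 312 CPM) and Schwann precursor-like barcodes (309 and 313 CPM). In Tcf21/Foxf mesenchyme it was higher in KO, 228 CPM (220 to 236) against 151 CPM (145 to 158). Its relative Sfrp2 was at 136 CPM (134 to 138) in WT against 111 CPM (109 to 112) in KO and lower in KO in 12 of 13 classes. Sfrp5 rested on few UMIs, 129 in WT and 39 in KO, or 0.859 CPM (0.717 to 1.02) and 0.274 CPM (0.195 to 0.375). Frzb was highest in Tcf21/Foxf mesenchyme, at 46.7 and 37.7 CPM.

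Wif1, which binds Wnt ligands directly, was at 6.02 CPM (5.63 to 6.43) in WT against 9.46 CPM (8.96 to 9.98) in KO, 1.57-fold higher in KO. That ratio was past 1.5-fold in 12 of 15 alternative settings, and at 0.53 on the log2 scale without KO barcodes that held Pdgfrb. Sclerotome-like barcodes, a larger share of KO, had 9.53 and 11.6 CPM. Wif1 was higher in KO in 12 of 13 classes, the coelomic class being the exception, and reached 12.6 and 17.9 CPM in Prrx/Twist2 mesenchyme. Dkk2, an inhibitor that binds LRP6, was highest in the same class, at 80.3 CPM (77.2 to 83.5) and 74.1 CPM (70.9 to 77.4). In smooth muscle-like barcodes Dkk2 was at 40.6 and 42.9 CPM, and in sclerotome-like ones higher in KO, 24.0 CPM (22.1 to 25.9) against 14.7 CPM (12.9 to 16.7).

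The R-spondin genes Rspo1 and Rspo3 were both high in nephrogenic mesenchyme. Rspo1, known from the gonad, was highest in nephrogenic mesenchyme in WT, at 53.1 CPM (44.4 to 63.0), and in the coelomic and gonadal ridge-like class in KO, at 67.5 CPM (58.9 to 76.9). The other of these classes stood next in each library, with overlapping intervals, and the rest were at most 24.1 CPM. Rspo3 was highest in nephrogenic mesenchyme, at 133 CPM (119 to 148) and 167 CPM (151 to 185), and close behind in Tcf21/Foxf mesenchyme, at 131 and 159 CPM. In smooth muscle-like barcodes Rspo3 was 1.70-fold higher in KO, 90.8 CPM (84.4 to 97.5) against 53.4 CPM (48.9 to 58.3), and in endothelial-like ones lower, 9.97 against 18.6 CPM. Their receptor Lgr4 was highest in the coelomic class, at 33.5 and 36.4 CPM. Lgr5, a receptor known from intestinal stem cells, was at 1.67 CPM (1.47 to 1.89) and 3.05 CPM (2.77 to 3.35), on 251 and 434 UMIs. It was higher in KO in sclerotome-like barcodes, 6.30 against 3.89 CPM, but lower in skeletal muscle-like ones, 4.03 against 7.0 CPM.

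The 5 genes of the destruction complex and beta-catenin lay between 0.09 and 0.31 on the log2 scale, so none passed 1.5-fold. Ctnnb1, which encodes beta-catenin, was highest in Schwann precursor-like (455 and 463 CPM) and endothelial-like barcodes (437 and 465 CPM) and lowest in erythroid-like ones (54.0 and 58.6 CPM). The kinase gene Gsk3b was highest in sympathoblast-like barcodes, at 249 and 255 CPM. Gsk3a was at 37.3 and 39.6 CPM over all barcodes, and the scaffold genes Axin1 and Apc at 16.9 and 20.9 CPM and at 58.6 and 72.2 CPM.

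Tcf7l2, which encodes a TCF factor that partners beta-catenin, had a lower CPM in KO in each of the 13 classes. Its gene is on GRCm38 chromosome 19, from 55741820 to 55933654, on the plus strand, and overlaps Ppnr on the same strand. Over all barcodes it was at 118 CPM (117 to 120) in WT against 83.1 CPM (81.6 to 84.6) in KO, and in mesenchyme at 133 and 88.9 CPM, or -0.59 (-0.62 to -0.55) on the log2 scale. The highest class was Tcf21/Foxf mesenchyme in both, at 176 and 107 CPM, and the lowest erythroid-like, at 60.8 and 27.4 CPM. The log2 ratios by class ran from -1.15 to -0.21, and of their intervals the macrophage-like one alone, -0.21 (-0.51 to 0.09), reached 0. Unlike Wnt2, Tcf7l2 differed as much in mesenchyme without Pitx1, 127 CPM (124 to 130) and 86.5 CPM (84.5 to 88.5), as with it, 145 CPM (141 to 149) and 100 CPM (95.8 to 105).

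A ratio below 0 in all 13 classes was found for 2 of 36 members with at least 10 summed UMIs in each class, Wnt4 and Tcf7l2, beside 5.77% of all such genes. A ratio above 0 in all 13 was found for 1 of 36, Ryk, beside 3.53%. These shares are near the background too. Wnt4 was lowest of the 13 classes in erythroid-like barcodes, at 4.76 and 0.817 CPM. Of the other TCF and LEF factors, Tcf7l1 was highest in smooth muscle-like barcodes, at 54.2 and 50.4 CPM. Lef1, itself often a Wnt target, was at 39.1 and 37.2 CPM in Schwann precursor-like barcodes and at 36.6 CPM (34.5 to 38.8) and 43.9 CPM (41.5 to 46.5) in Prrx/Twist2 mesenchyme, but at 7.58 and 5.73 CPM in smooth muscle-like barcodes.

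**Figure D4:**
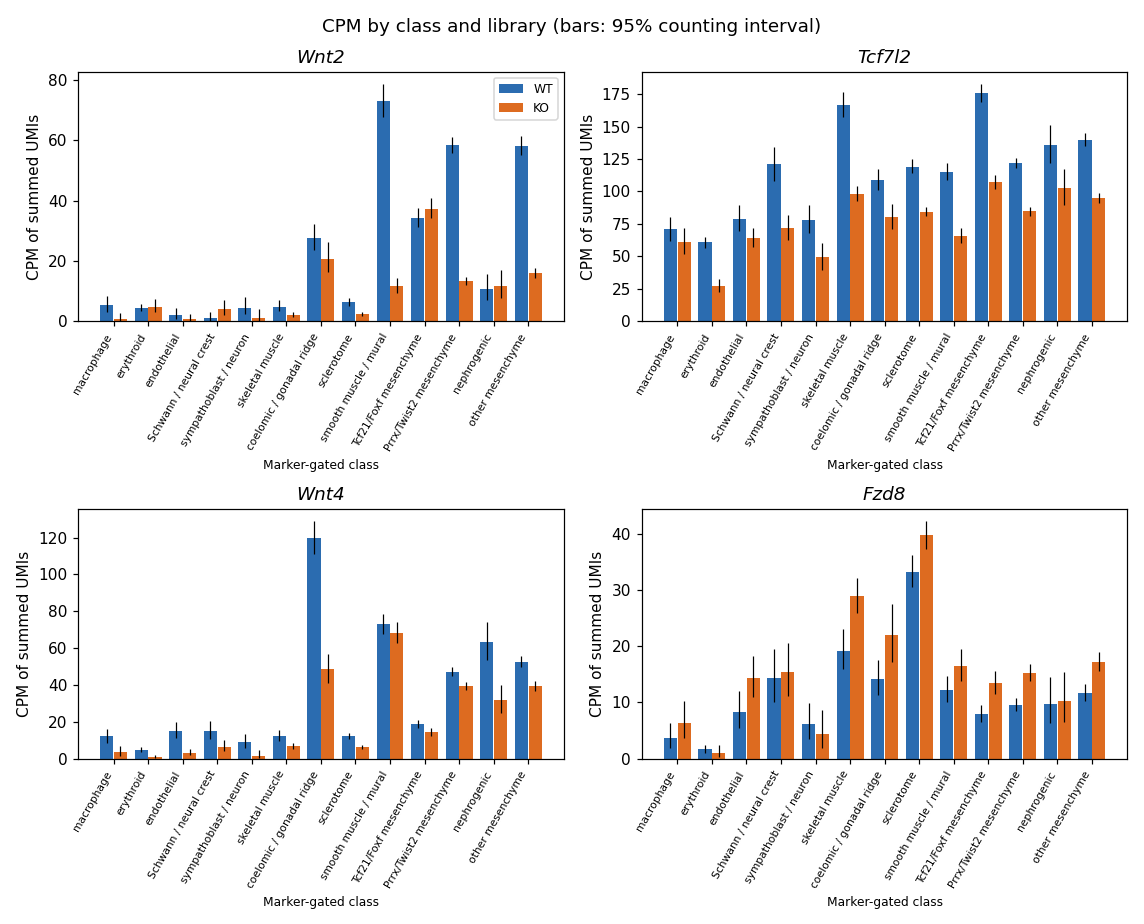
CPM (y axis) of Wnt2, Tcf7l2, Wnt4 and Fzd8 in the 13 marker-gated classes (x axis) in WT (blue) and KO (orange), with 95% counting intervals. Wnt2 was lower in KO in smooth muscle, Prrx/Twist2 and other mesenchyme but not in Tcf21/Foxf mesenchyme. The CPM of Tcf7l2 and of Wnt4 was lower in KO in all 13, and that of Fzd8 was highest in sclerotome. By thinned shares of barcodes Wnt4 was not lower in KO in smooth muscle, Prrx/Twist2 and other mesenchyme.

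Axin2 and Nkd1 encode feedback inhibitors that canonical signaling is known to induce. Axin2 was highest in Prrx/Twist2 mesenchyme in both libraries, at 32.1 CPM (30.2 to 34.2) in WT against 26.1 CPM (24.2 to 28.1) in KO. The coelomic class followed in WT at 27.8 CPM (23.7 to 32.3), and had 17.5 CPM (13.3 to 22.6) in KO. Smooth muscle-like barcodes were low in both, at 6.64 and 8.04 CPM. Nkd1 was at 47.9 and 38.7 CPM in Prrx/Twist2 mesenchyme and at 38.7 and 39.2 CPM in the coelomic class. In mesenchyme as a whole the log2 ratio was -0.36 (-0.45 to -0.27) for Axin2 and -0.35 (-0.42 to -0.28) for Nkd1, both under 1.5-fold. Across the 13 classes, which share libraries and depth, Axin2 levels had a Spearman rho of 0.88 in WT and 0.83 in KO with Nkd1, of 0.63 and 0.47 with Lef1, and of 0.86 and 0.88 with Rspo3. With Wnt2 the rho was 0.66 in WT and 0.90 in KO. It was as high or higher with Wnt5a, at 0.84 and 0.95. With Rspo1 the rho was 0.78 and 0.86, and with Znrf3 0.92 and 0.63.

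**Figure D5:**
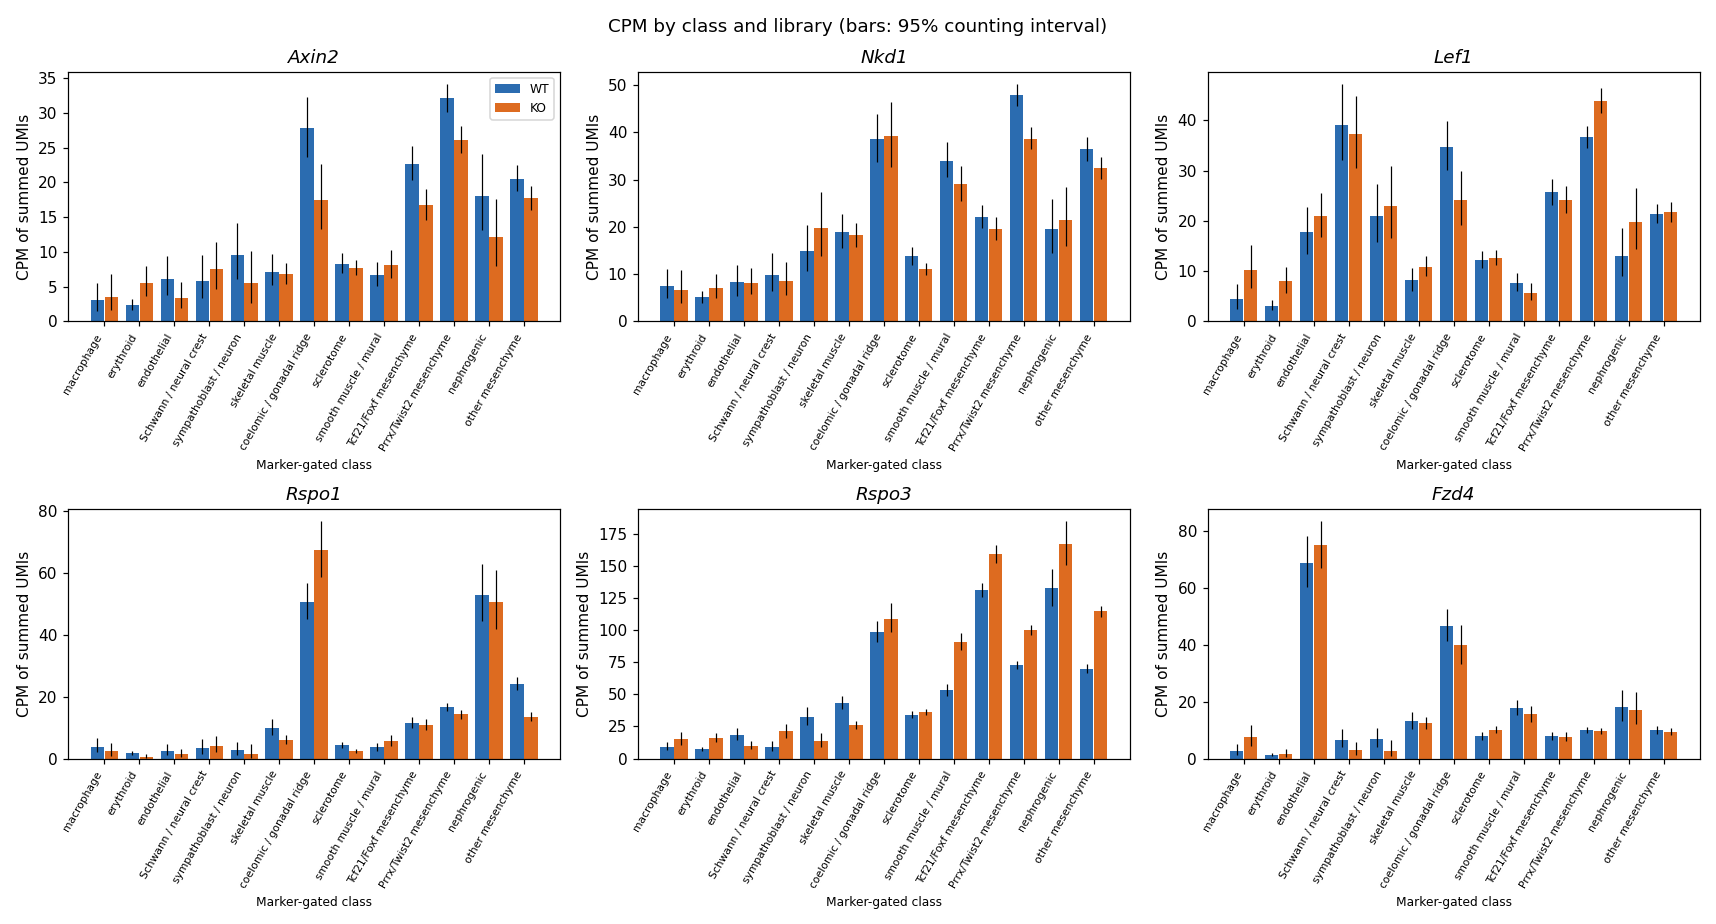
CPM (y axis) of Axin2, Nkd1, Lef1, Rspo1, Rspo3 and Fzd4 in the 13 marker-gated classes (x axis) in WT (blue) and KO (orange), with 95% counting intervals. Axin2 was highest in Prrx/Twist2 mesenchyme (32.1 and 26.1 CPM), Rspo1 in the nephrogenic and coelomic classes and Fzd4 in endothelial-like barcodes.

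Upstream sequences of 4 members are shown because these genes carry the differences described above, Wnt2 and Tcf7l2 between libraries and Axin2 and Lef1 between classes. They come from RefSeq promoters (GRCm38.p6), which matched 32 of the 48 members, and bases inside annotated exons were left out. Capitals mark the core TCF and LEF motif, searched as CTTTGA and CTTTGT on both strands with overlapping matches counted. Wnt2 is chr6:18030586-18030695 on the minus strand, Tcf7l2 chr19:55741560-55741809, Axin2 chr11:108920099-108920348 and Lef1, at a start inside its gene, chr3:131156044-131156293, all 3 on the plus strand.
Wnt2: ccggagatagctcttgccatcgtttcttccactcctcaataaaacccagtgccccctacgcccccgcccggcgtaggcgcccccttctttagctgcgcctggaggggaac
Tcf7l2: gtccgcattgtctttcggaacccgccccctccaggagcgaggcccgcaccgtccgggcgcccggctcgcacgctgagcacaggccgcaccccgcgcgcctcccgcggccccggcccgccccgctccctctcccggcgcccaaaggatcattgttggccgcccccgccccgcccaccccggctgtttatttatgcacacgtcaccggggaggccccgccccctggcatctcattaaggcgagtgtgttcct
Axin2: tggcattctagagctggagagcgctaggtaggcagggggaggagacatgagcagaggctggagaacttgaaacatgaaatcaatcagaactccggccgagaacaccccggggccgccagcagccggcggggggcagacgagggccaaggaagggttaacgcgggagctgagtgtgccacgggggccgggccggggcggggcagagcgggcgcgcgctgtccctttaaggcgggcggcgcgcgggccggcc
Lef1: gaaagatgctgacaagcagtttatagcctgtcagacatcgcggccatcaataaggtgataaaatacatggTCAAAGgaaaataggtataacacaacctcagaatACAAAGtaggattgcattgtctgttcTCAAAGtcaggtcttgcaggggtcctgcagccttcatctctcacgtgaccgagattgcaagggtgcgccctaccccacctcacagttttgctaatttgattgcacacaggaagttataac
The Lef1 stretch holds 3 matches and the other 3 stretches 0. It was chosen for its matches, and the windows at the 3 other Lef1 starts listed hold 0, while that at another Tcf7l2 start holds 1. In windows of 300 bases, 14 of the 41 promoters of members hold a match (34.1%), beside 31.2% of 32851 promoters in all. A match is a run of letters and not a bound site. Fzd8, Znrf3, Sfrp1, Lgr5, Dkk3, Rspo3, Fzd2, Lrp6, Fzd6, Fzd3, Lrp5, Apc, Rspo2, Wnt5a, Axin1 and Porcn had no entry.

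By class, different members passed 1.5-fold. In smooth muscle-like barcodes 2 of 35 members with 100 summed UMIs were lower in KO (Wnt2 and Tcf7l2, beside 4.27% of all genes) and 3 higher (Wnt5a, Rspo3 and Znrf3, beside 3.59%). In Prrx/Twist2 mesenchyme 2 of 44 were lower (Wnt2 and Wnt9a, beside 4.36%) and 3 higher (Wnt6, Fzd8 and Lgr5, beside 3.29%). In other mesenchyme 2 of 42 were lower (Wnt2 and Rspo1, beside 4.28%) and 2 higher (Wif1 and Rspo3, beside 3.46%). In Tcf21/Foxf mesenchyme 2 of 41 were lower (Wnt11 and Tcf7l2, beside 2.58%) and 2 higher (Fzd8 and Sfrp1, beside 2.61%).

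In sclerotome-like barcodes 4 of 40 were lower (Wnt2, Wnt4, Wnt11 and Rspo1, beside 2.41%) and 3 higher (Dkk2, Dkk3 and Lgr5, beside 4.80%). In the coelomic and gonadal ridge-like class 5 of 34 were lower (Wnt4, Wnt6, Wnt11, Axin2 and Znrf3, beside 3.90%) and 1 higher (Fzd8, beside 1.95%), with a median log2 ratio of -0.08 for members and -0.02 for all genes. The class had 138 WT and 83 KO barcodes. In endothelial-like barcodes 2 of 18 were lower (Wnt5a and Rspo3, beside 3.68%) and 0 higher (beside 2.76%). Wnt5a and Rspo3, which passed in both, were thus lower in endothelial-like and higher in smooth muscle-like barcodes of the KO library. How many of all genes did so was not counted. The endothelial-like levels were low, and Rspo3 rested there on 61 and 44 UMIs. Erythroid-like barcodes had 7.36 CPM of Rspo3 in WT and 16.1 CPM in KO, and 8.51 CPM of Wnt5a in WT.

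Dkk1, Dkk3, Fzd6, Porcn, Rspo2, Wnt11, Wnt2b and Znrf3 stayed under 20 CPM in every class and within 1.5-fold over all and mesenchymal barcodes, and their values here were chosen after they were seen. Over all barcodes they ran from 0.433 CPM (Wnt2b) to 12.5 CPM (Wnt11) in WT and from 0.436 to 8.78 CPM in KO. Wnt11, a ligand with known roles in kidney and heart, was lower in KO in 11 of 13 classes, among them Tcf21/Foxf mesenchyme at 18.6 and 8.48 CPM. Fzd6 was highest in endothelial-like barcodes, at 16.1 CPM in both libraries, and Rspo2 in sclerotome-like ones, at 13.5 and 13.4 CPM. The inhibitor genes Dkk1 and Dkk3 were at 6.61 and 6.70 CPM and at 4.06 and 4.33 CPM over all barcodes. Porcn, whose product lipidates Wnt ligands, was at 3.68 and 4.37 CPM and Znrf3 at 7.11 and 6.68 CPM. Fzd10 was at 14.1 and 13.9 CPM in Tcf21/Foxf mesenchyme and at 11.9 and 14.3 CPM in endothelial-like barcodes, and Tcf7 was highest of the 13 in the coelomic class in WT (14.9 CPM) and in Tcf21/Foxf mesenchyme in KO (11.5 CPM).

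WT mesenchyme was also split by Pdgfrb and Cspg4 UMIs, after the perivascular subsets of the study. There were 397 barcodes with both (DP), 2094 with Pdgfrb alone (PDGFRb-S), 242 with Cspg4 alone (NG2-S) and 2612 with neither (DN). Their median depths were 23068, 16444, 13944 and 11516 UMIs, so a shallow barcode may lack a UMI of a gene it expresses, and 35.3% of DP but 3.94% of DN barcodes were smooth muscle-like. Wnt4 was at 58.0 CPM (53.9 to 62.4) in DP, 44.5 in PDGFRb-S, 27.7 in NG2-S and 29.8 CPM in DN. The log2 ratio of DP over the other 3 subsets together was 0.62 (0.50 to 0.74) for Wnt4, 0.58 (0.46 to 0.70) for Fzd1 and 0.91 (0.68 to 1.12) for Fzd4. It was -0.80 (-1.04 to -0.57) for Axin2, -0.78 (-1.01 to -0.57) for Lef1 and -1.83 (-2.79 to -1.0) for Wnt6. The feedback genes did not go together, as the ratio was 0.05 (-0.10 to 0.19) for Nkd1 and 0.13 (-0.17 to 0.43) for Znrf3. Axin2 itself was at 12.7 CPM in DP, 25.9 in PDGFRb-S, 10.9 in NG2-S and 18.2 CPM in DN. The DP and PDGFRb-S subsets were level in Wnt2, at 53.9 CPM (49.9 to 58.1) and 54.4 CPM (52.3 to 56.6), and Dkk2 at 54.0 and 57.7 CPM, with overlapping intervals for both genes.

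A list of 56 other pathway genes held 43 with at least 100 summed UMIs, and their median log2 ratio was 0.01. Lower in KO past 1.5-fold was 1, the R-spondin gene Rspo4 (0.499 and 0.218 CPM). Higher were 3, the receptor gene Fzd9 (1.46 and 4.52 CPM), the DKK receptor gene Kremen2 (1.77 and 3.91 CPM) and the inhibitor gene Sostdc1 (1.74 and 2.70 CPM). Over all genes 5.06% were lower and 5.75% higher by as much, so both counts are near the background. The other 39 were within 1.5-fold.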

How the data were processed

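Cells of WT and KO AGMs were loaded for 7000 recovered cells per library and sequenced with 10x 3′ v3 chemistry. The authors aligned reads with Cell Ranger 3.1.0 to mm10 (GRCm38) and deposited unfiltered matrices of whole-number UMI counts per gene and barcode, 179743201 UMIs in WT and 174597654 in KO. The number of embryos per library is not given in the sources used here.

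Barcodes with at least 2000 UMIs and under 10% mitochondrial UMIs were kept, which left 150175081 and 142222182 UMIs. The study also removed KO barcodes with a Pdgfrb UMI. They were kept here and removed as an alternative. Doublets were not called. Barcodes that passed gates of several lineages were kept in the totals and left out of the classes. Classes were gated on marker genes that include no member. UMIs were summed per class and library and scaled to CPM with exact Poisson intervals, and ratios of KO over WT have exact conditional binomial intervals, at 95%. Shares of barcodes have exact Clopper-Pearson intervals. Intervals cover counting error only. Free RNA was read from barcodes with at most 100 UMIs. Genes with under 100 summed UMIs were not counted as past 1.5-fold. The sums were tested on simulated data.

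The members and lists were chosen with earlier results of these data known. Values were printed for members with a class at or above 20 CPM or past 1.5-fold over all or mesenchymal barcodes, and by range otherwise. Of a list of other pathway genes, those past 1.5-fold over all barcodes were named. Alternatives were 15 planned and 2 chosen after seeing the data. Python 3.11.15, numpy 2.4.6, scipy 1.17.1, pandas 2.3.3, matplotlib 3.10.9, R 4.3.3 and edgeR 4.0.16 (for TMM factors only) were used.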

Additional observations from a re-analysis of the deposited data

How the results depend on the processing

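Of 85 summary values recomputed under the alternatives, 73 stayed close to the reported value, 12 moved and 0 reversed. The median log2 ratio of the members over all barcodes was 0.14 with under 5% mitochondrial UMIs and 0.31 with Pdgfrb-UMI barcodes removed from both libraries. Members lower in KO past the fold were 4 with Pdgfrb-UMI barcodes removed from KO, 1 with them removed from both, 1 with barcodes thinned to 2000 UMIs, 4 with KO classes weighted to WT shares and 0 without barcodes with a Pitx1 UMI, an alternative chosen after seeing the data, as was leaving out gastro-splenic barcodes. In that count of 0, Sfrp5 was at -0.98 on the log2 scale but under 100 summed UMIs. Members higher in KO were 9 with Pdgfrb-UMI barcodes removed from both, 1 thinned, 1 weighted and 0 at 2-fold. The matching values for all genes are not given here, so these counts and medians are not set against a background. The members with the same highest class in both libraries were 15 of 48 after thinning, against 29, with no share over all genes beside either count. Of 195 single-gene values 44 moved and 0 reversed. Wnt2 over all barcodes ran from -1.79 to -0.18 on the log2 scale, and was past 1.5-fold in 14 of 15 alternatives, the exception being that without Pitx1 barcodes. Fzd8 over all barcodes ran from 0.47 to 0.99, Wif1 from 0.53 to 0.83 and Lgr5 from 0.31 to 1.24. Tcf7l2 in mesenchyme ran from -0.65 to -0.53 and was past 1.5-fold in 8 of 15, and Wnt9a from -1.57 to -0.075, past it in 11 of 15 and at -0.075 without Pitx1 barcodes. Beyond what the alternatives change by construction, the cause was not tested. No paired analysis was possible because there was 1 library per genotype, and no library could be left out. Depth limits members with few UMIs, such as Sfrp5, Lgr5 and Wnt9a.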
